A study of Mus musculus with 5 samples.

Results

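The genes described here are 10 of the 55487 gene identifiers counted in the series. They are the transcription factor genes *Myb*, *Lmo2*, *Lmo4*, *Lyl1*, *Hhex*, *Mef2c*, *Bcl11a* and *Erg* and the surface receptor genes *Kit* and *Cd34*, which are known from blood stem cells and from the earliest cells of the thymus. They were chosen by symbol, each symbol was matched to its Ensembl identifier of the mouse genome build GRCm38, and their reads were taken from the unstranded gene counts of every library. RNA was sequenced from CD4 single positive (CD4 SP) thymocytes of 3 wild type (WT) mice and 2 *Tet2/3* double knockout (DKO) mice, 1 library per mouse, and the question the comparison addresses is how gene expression in these cells differs when TET2 and TET3 are lost. The mice were C57BL/6J, taken in the fourth or the fifth week of age. DKO mice were *Tet2*-/- *Tet3* flx/flx CD4cre, so that *Tet2* was deleted in every cell of the animal, while *Tet3* was deleted by a Cre recombinase under *Cd4* control, which acts from the double positive (DP) stage onward. The cells were live, depleted of CD24 high thymocytes and sorted as CD4+, TCRb+, CD8- and negative for the CD1d tetramer loaded with alpha-galactosylceramide. The tetramer gate is meant to exclude invariant natural killer T (iNKT) cells in both genotypes, and how many were left was not measured here. No earlier thymic stage and no single knockout was among these libraries.

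The libraries held 17607089 to 27267031 reads assigned to genes, so 3 reads, the upper limit that a count of 0 allows, corresponded to 0.109 to 0.168 on the CPM scale (read counts set relative to the library's TMM-scaled size), a limit that covers counting error only. *Tet3*, one of the targeted genes, was at 47.3 ± 4.57 CPM (SD, n = 3) in WT and at 16.6 ± 4.83 CPM (SD, n = 2) in DKO, a log2 fold change of -1.50 (SE 0.18, adjusted p = 0.00121 by the quasi-likelihood test of edgeR, adjusted over all tested genes). It was -1.85 without DKO replicate 1 and -1.26 without DKO replicate 2, and the adjusted p was 0.00853, 0.0154 and 0.0144 without WT replicates 1, 2 and 3. *Tet2* was at 54.8 ± 2.72 CPM in WT and 75.1 ± 23.2 CPM in DKO (adjusted p = 0.135), and counts over the whole gene do not test the deletion of part of it. For 2 libraries the sex on the label went against the reads. DKO replicate 1, labelled male, held 744 reads of *Xist* and 7 reads over 4 Y-linked genes (*Uty*, *Kdm5d*, *Ddx3y*, *Eif2s3y*), whereas the other DKO library held 0 and 5101. WT replicate 1, labelled female, held 0 reads of *Xist* and 6821 Y-linked reads, near the 6691 and 7041 of the other WT libraries. For the tested genes among the 10 and the calls in the lists, results with single libraries left out are given as well. Leaving out a DKO library leaves 1 DKO mouse and no spread within DKO, so those fits are given by log2 fold change only. DKO replicate 1 also had the largest share of reads outside genes, 5.70% against 3.51% to 3.72% in the other libraries. The reads of *Tet3* were lower in both DKO libraries (419 and 235) than in every WT library (1082 to 1440).

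Blood cells that enter the thymus carry over a set of stem and progenitor cell regulators, and T lineage commitment is marked by the shutdown of many of them, though not of all. LMO2 is an adaptor without DNA binding of its own that joins LDB1, E proteins and the basic helix-loop-helix factors LYL1 or TAL1 into one complex. HHEX is a homeobox factor and MEF2C a MADS-box factor of early lymphoid progenitors, BCL11A is a zinc finger factor needed for early lymphoid development, and ERG is an ETS factor of stem cells. MYB is needed from the stem cell through the DP stage. KIT is the receptor tyrosine kinase for stem cell factor, and CD34 is a sialomucin on the surface of progenitors. CD4 SP cells, which leave the DP stage after positive selection, are at the end of thymic development. TET enzymes oxidise 5-methylcytosine, which in mammals lies mostly in CG dinucleotides.

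Because TET enzymes act on CG dinucleotides, the sequence just upstream of the transcription start is shown for the genes whose DKO and WT libraries did not overlap and that had an entry in the RefSeq promoter table (GRCm38.p6). CG is in capitals, each sequence is read 5′ to 3′ on the gene's strand, and each ends before the first annotated start. The *Myb* stretch is chr10:21160985-21161234 (minus strand), the *Lmo4* stretch chr3:144205256-144205505 (minus strand), the *Hhex* stretch chr19:37434591-37434809 (plus strand) and the *Kit* stretch chr5:75574737-75574915 (plus strand). *Lmo2* had no entry.
Myb: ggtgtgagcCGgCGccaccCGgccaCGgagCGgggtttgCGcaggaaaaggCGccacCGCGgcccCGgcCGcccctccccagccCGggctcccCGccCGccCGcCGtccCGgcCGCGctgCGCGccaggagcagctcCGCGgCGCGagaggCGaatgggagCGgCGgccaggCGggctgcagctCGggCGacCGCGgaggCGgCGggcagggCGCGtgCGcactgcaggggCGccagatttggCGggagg
Lmo4: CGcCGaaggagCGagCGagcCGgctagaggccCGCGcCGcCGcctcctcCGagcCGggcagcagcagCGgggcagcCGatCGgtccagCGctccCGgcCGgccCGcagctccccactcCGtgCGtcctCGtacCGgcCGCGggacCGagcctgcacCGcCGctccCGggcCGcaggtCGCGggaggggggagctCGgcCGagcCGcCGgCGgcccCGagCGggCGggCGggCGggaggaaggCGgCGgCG
Hhex: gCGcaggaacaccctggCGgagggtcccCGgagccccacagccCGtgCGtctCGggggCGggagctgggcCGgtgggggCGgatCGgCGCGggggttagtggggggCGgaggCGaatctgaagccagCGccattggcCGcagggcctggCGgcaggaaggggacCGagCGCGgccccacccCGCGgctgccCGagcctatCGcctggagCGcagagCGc
Kit: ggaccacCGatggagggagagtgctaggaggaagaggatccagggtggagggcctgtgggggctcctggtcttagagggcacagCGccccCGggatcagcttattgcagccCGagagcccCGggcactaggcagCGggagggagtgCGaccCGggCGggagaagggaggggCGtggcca
These stretches held 40, 44, 26 and 10 CG dinucleotides over 250, 250, 219 and 179 bases. In the full windows of 300 bases around the 5′-most start, which were available for 9 of the 10 genes, the counts ran from 52 for *Lmo4*, 40 for *Myb* and 37 for *Hhex* through 23 for *Bcl11a*, 20 for *Kit* and 16 for *Erg* to 7 for *Lyl1*, 7 for *Cd34* and 1 for *Mef2c*. Across all 32851 windows in the table the quartiles were 3, 7 and 20 CG, and 94.6% of windows held at least 1. As many CG as in the *Lmo4*, *Myb* and *Hhex* windows were found in 0.575%, 3.91% and 5.58% of windows. The *Kit* window had as many CG as the upper quartile (26.5% of windows had as many). Methylation at these stretches was not measured in these libraries.

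Of the 10 genes, 6 had enough reads to be tested. *Myb*, *Lmo2* and *Hhex* rose in DKO CD4 SP cells at an adjusted p below 0.01 and none of the 6 fell past it, while 2.42% of all 13525 tested genes rose and 1.5% fell. In 4 genes (*Myb*, *Lmo2*, *Hhex* and *Lmo4*) both DKO libraries lay above every WT library, as did 19.6% of all tested genes, and in 1 gene (*Kit*) both lay below, as did 19.5%. *Mef2c* overlapped between the genotypes. The other 4 genes, *Lyl1*, *Erg*, *Cd34* and *Bcl11a*, stayed under 10 reads in every library. The median log2 fold change of the 6 tested genes was 1.12, beside 0.0076 for all tested genes, and since 4 of the 10 could not be tested this median does not stand for the whole group. The genes were chosen with earlier results of these data known. From these same libraries the authors had already reported *Myb*, *Lmo2* and *Lmo4* as higher in DKO. The counts and the median therefore describe the genes and do not test them as a group. With any 1 WT library left out the number of the 10 genes past the threshold went from 3 to 0 by edgeR. Over all tested genes the number went from 530 to 152, 110 and 127 without WT replicates 1, 2 and 3. In each of these fits 5 of the 10 still had an unadjusted p below 0.05, a level with no share over all genes beside it. DESeq2 on the same libraries gave 3, 3 and 4 of the 10, and 582, 650 and 669 of all genes. Without DKO replicate 1, whose sex label went against its reads, the log2 fold changes of *Myb*, *Lmo2* and *Hhex* were 1.55, 1.93 and 3.73. Without DKO replicate 2 they were 1.46, 1.74 and 2.57. In bulk RNA a gene can be higher because more cells express it or because each cell holds more of its RNA, and these cannot be told apart here.

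**Figure D1:**
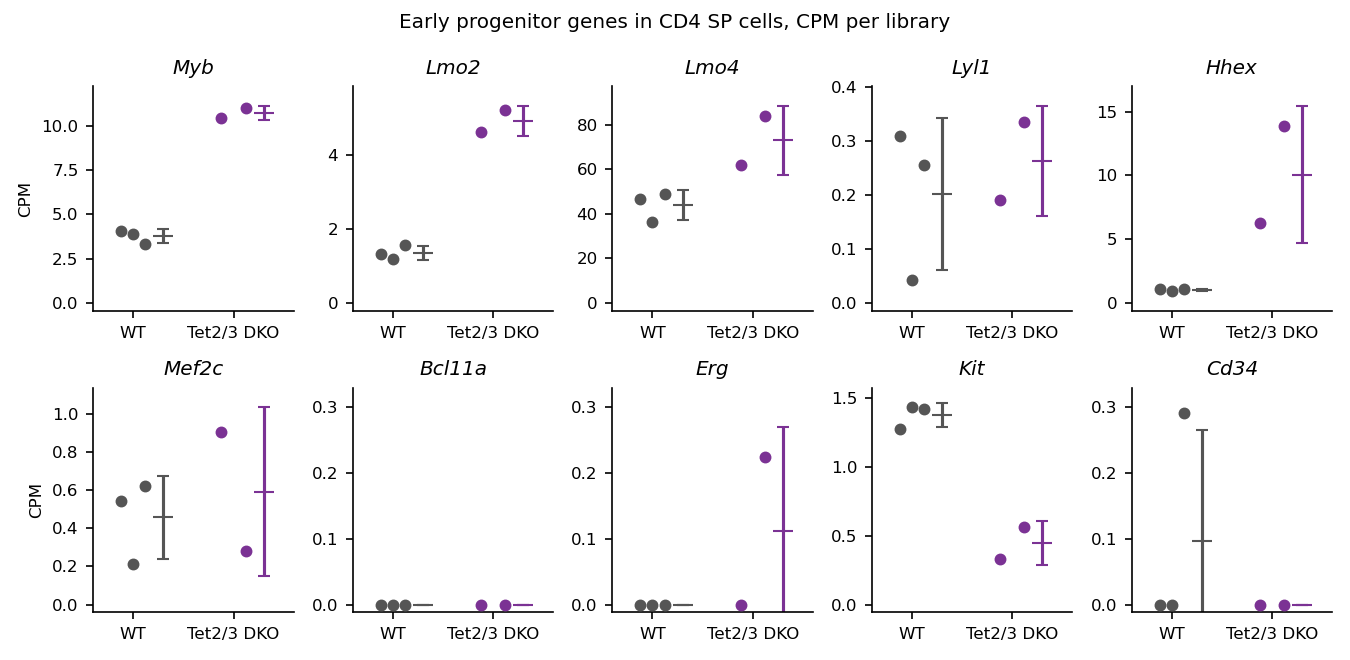
Expression of the 10 early progenitor genes in each library, in CPM on a linear axis that differs between panels, with each point a library (1 mouse), and the bar and its whiskers the mean and SD of 3 WT or 2 DKO libraries. In *Myb*, *Lmo2*, *Lmo4* and *Hhex* both DKO points lie above all WT points, in *Kit* both lie below, and *Lyl1*, *Erg*, *Cd34* and *Bcl11a* lie near or at 0.

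*Myb* (ENSMUSG00000019982, chr10:21124935-21160984, minus strand, GRCm38), whose factor is required for progenitor maintenance and for survival of DP cells, had 105, 93 and 91 reads in the WT libraries and 219 and 197 in the DKO libraries. In CPM these were 4.06, 3.92 and 3.32 in WT and 10.4 and 11.02 in DKO. The genotypes did not overlap, and the DKO libraries differed from each other by a factor of only 1.06. The mean went from 3.77 ± 0.396 CPM (SD, n = 3) to 10.7 ± 0.411 CPM (SD, n = 2), a 2.85-fold difference and a log2 fold change of 1.51 (SE 0.20, adjusted p = 0.00204, edgeR). The log2 fold change stayed between 1.42 and 1.57 with any 1 library left out, but with a WT library left out the adjusted p was 0.0167 to 0.0228. A part of the *Myb* exons overlaps the antisense gene *Gm26577*, which was listed with 0, 2 and 0 reads in WT and 4 and 0 in DKO. The counting did not use strand, so reads of *Myb* and its antisense partner cannot be told apart in the shared stretch. On the sum of the counts of the 2 strand settings, which keeps reads that overlap both genes, the *Myb* libraries had 158, 137, 149, 297 and 303 reads and a log2 fold change of 1.43.

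*Lmo2* (ENSMUSG00000032698, chr2:103957986-103981878, plus strand), the adaptor of the stem cell complex, had 34, 28 and 43 reads in WT and 97 and 93 in DKO. In CPM the WT libraries were at 1.32, 1.18 and 1.57 and the DKO libraries at 4.62 and 5.20, so each DKO library was well above the highest WT library. The mean went from 1.35 ± 0.196 to 4.91 ± 0.409 CPM, 3.58-fold, with a log2 fold change of 1.84 (SE 0.28, adjusted p = 0.00387, edgeR). Leaving out any 1 library kept it between 1.74 and 1.96, and the adjusted p was 0.0231 to 0.0383 with a WT library left out. These are low counts, and fewer than 50 reads stood behind each WT value.

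*Hhex* (ENSMUSG00000024986, chr19:37434810-37440731, plus strand), a homeobox repressor of early blood and lymphoid progenitors, had the largest change among the 3 genes that passed. It had 28, 22 and 30 reads in WT and 131 and 248 in DKO, or 1.08, 0.927 and 1.09 CPM in WT and 6.25 and 13.9 CPM in DKO. Both DKO libraries were far above the WT libraries, which lay close together, but they differed from each other 2.22-fold. The mean went from 1.03 ± 0.0932 to 10.1 ± 5.40 CPM, 9.47-fold, with a log2 fold change of 3.24 (SE 0.42, adjusted p = 0.00173, edgeR). It ranked 170 of 13525 tested genes by log2 fold change, counted from the highest, where *Lmo2* ranked 435 and *Myb* 583. The log2 fold change was 3.73 without DKO replicate 1 and 2.57 without DKO replicate 2, and the adjusted p was 0.0137 to 0.0251 with a WT library left out.

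*Lmo4* (ENSMUSG00000028266, chr3:144188530-144205220, minus strand), a LIM-only relative of LMO2 that binds LDB1 and is made in many mature cell types, had by far the most reads of the 10. It had 1211, 864 and 1342 reads in WT and 1302 and 1501 in DKO, which after scaling were 46.8, 36.4 and 48.9 CPM and 62.1 and 84.0 CPM. The DKO libraries were above all WT libraries, with a spread of 1.35-fold between them and of 1.34-fold among WT. The means were 44.0 ± 6.70 and 73.0 ± 15.5 CPM, a log2 fold change of 0.72 (SE 0.16) that did not pass the threshold (adjusted p = 0.0248, edgeR). Without DKO replicate 1 the log2 fold change was 0.93, and without DKO replicate 2 it was 0.48, each resting on 1 DKO library. DESeq2 on all libraries gave an adjusted p of 0.00134.

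**Figure D2:**
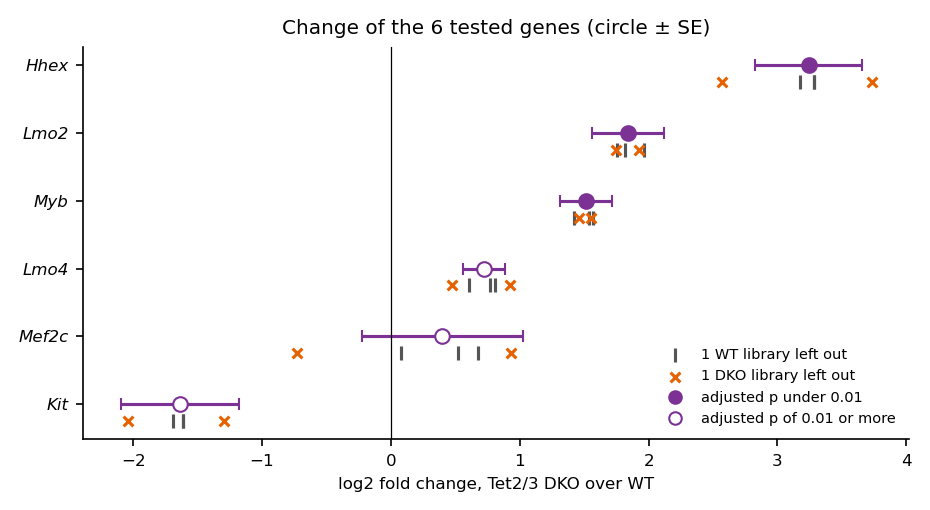
Log2 fold change (DKO over WT) of the 6 tested genes, with the points and horizontal bars giving the edgeR estimate and its SE, filled where the adjusted p was below 0.01, and the small marks giving the estimate with 1 library left out at a time. *Hhex* (3.24), *Lmo2* (1.84) and *Myb* (1.51) passed, and the *Mef2c* marks lie on both sides of 0.

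Neither receptor gene had more reads in DKO than in WT. *Kit* (ENSMUSG00000005672, chr5:75574916-75656722, plus strand), the receptor for stem cell factor, had 33, 34 and 39 reads in WT and 7 and 10 in DKO, that is 1.28, 1.43 and 1.42 CPM against 0.334 and 0.559 CPM. Both DKO libraries lay below every WT library, at under 11 reads each. The mean went from 1.38 ± 0.0870 CPM (SD, n = 3) to 0.447 ± 0.160 CPM (SD, n = 2), a log2 fold change of -1.64 (SE 0.46) that did not pass the threshold (adjusted p = 0.0607, edgeR; 0.0989, DESeq2). It was -1.29 without DKO replicate 1 and -2.04 without DKO replicate 2. *Cd34* (ENSMUSG00000016494, chr1:194938819-194961279, plus strand) had 0, 0 and 8 reads in WT and 0 and 0 in DKO. All its reads thus came from WT replicate 3, and in the other 4 libraries it was below the limit of 3 reads, so a difference was not detectable at this depth.

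The remaining transcription factors were near or below what the depth can show. *Mef2c* (ENSMUSG00000005583, chr13:83504034-83667080, plus strand) had 14, 5 and 17 reads in WT and 19 and 5 in DKO, and its CPM of 0.457 ± 0.217 in WT and 0.593 ± 0.443 in DKO overlapped. Its log2 fold change of 0.40 (SE 0.63, adjusted p = 0.774, edgeR) turned to -0.73 without DKO replicate 1 and was 0.93 without DKO replicate 2. *Lyl1* (ENSMUSG00000034041, chr8:84701457-84704715, plus strand), the partner of LMO2 in the stem cell complex, had 8, 1 and 7 reads in WT and 4 and 6 in DKO, at 0.202 ± 0.141 and 0.263 ± 0.103 CPM. The genotypes overlapped. Its exons touch those of *Nfix*, and on the sum of the strand settings *Lyl1* had 10, 3 and 9 reads in WT and 4 and 7 in DKO, so that 1 library reached 10 reads. *Erg* (ENSMUSG00000040732, chr16:95359169-95586593, minus strand) had 0 reads in all WT libraries and in DKO replicate 1, and 4 in DKO replicate 2. *Bcl11a* (ENSMUSG00000000861, chr11:24078056-24174123, plus strand) had 0 in all 5 libraries, which allows up to 3 reads in each. For *Bcl11a*, the sum over the strand settings was 1, 0 and 1 reads in WT and 1 and 0 in DKO, so at most 1 read per library was lost to overlap with the antisense gene *4930538E20Rik*.

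Compared per length, in CPM per kb of exon, the order of levels in WT was *Lmo4* at 12.5 ± 1.90 (SD, n = 3), *Lmo2* at 0.625 ± 0.0907, *Myb* at 0.422 ± 0.0443, *Hhex* at 0.205 ± 0.0184 and *Kit* at 0.154 ± 0.00977. Each of these was separated from the next across the 3 libraries. From *Kit* downward, through *Lyl1* (0.112), *Mef2c* (0.0291), *Cd34* (0.0133), *Erg* and *Bcl11a* (both 0), neighbours overlapped. In DKO the level of *Lmo4* was 20.7 ± 4.39 (SD, n = 2) CPM per kb, followed by *Lmo2* at 2.27 ± 0.189 and *Hhex* at 1.99 ± 1.07, which overlapped, and *Myb* at 1.20 ± 0.0460. *Hhex* thus stood above *Myb* in both DKO libraries and below it in every WT library. *Lyl1* followed at 0.146, above *Kit* at 0.0501, and *Kit*, *Mef2c* (0.0377) and *Erg* (0.0323) overlapped.

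The genes that work with or beside these 10 were described in 7 lists, which hold 83 genes, 60 of them tested. Of the 60, 2 rose (*Ly6a* and *Lyn*) and 2 fell (*Tcf7* and *Lef1*), together 6.67%, where 3.92% of all tested genes passed in either direction, and the median log2 fold change was -0.063. By DESeq2, 11 of the 62 listed genes it tested passed, 2 higher and 9 lower, where 1027 of all 14859 genes it tested passed. Leaving out any 1 WT library moved the edgeR count to 1 (*Ly6a* alone). Counts at an unadjusted p below 0.05 in the lists below have no share over all genes beside them.

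Other progenitor transcription factors were mostly at the limit of detection, with 10 of 16 under 10 reads in every library and *Tal1*, *Hoxa9*, *Hoxa10* and *Mecom* at 0 in all of them. Of the 5 tested, 0 passed by edgeR and 0 by DESeq2, 3 had an unadjusted p below 0.05, and the median log2 fold change was 1.58. *Fli1*, an ETS factor related to ERG that mature T cells also express, was at 47.5 ± 3.34 CPM in WT and 47.8 ± 2.45 CPM in DKO. *Hoxa7* was at 4.21 and 2.66 CPM (log2 fold change -0.67, adjusted p = 0.237). *Nfe2*, a factor of megakaryocytes and red cells, was at 0.361 CPM in WT and 2.37 ± 2.34 CPM in DKO (adjusted p = 0.0751), its 72 reads in DKO replicate 2 standing apart from 6 to 15 reads elsewhere.

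Among 10 other progenitor receptors and surface proteins, 1 of 6 tested genes passed by edgeR, beside 3.92% of all tested genes. By DESeq2 3 passed, beside 1027 of all 14859 genes. An unadjusted p below 0.05 was found for 5, with no share over all genes beside it. *Ly6a*, which encodes the stem cell antigen Sca-1 and is also present on mature T cells, rose from 271 ± 31.8 CPM to 670 ± 70.6 CPM (log2 fold change 1.30, SE 0.11, adjusted p = 0.000203, edgeR), and passed with any 1 WT library left out. *Cd44*, the hyaluronan receptor of early thymocytes and of activated T cells, was at 29.3 CPM in WT and 44.1 CPM in DKO (log2 fold change 0.59, adjusted p = 0.0271). *Il7r*, the receptor chain for interleukin 7, was at 295 and 242 CPM (log2 fold change -0.29, adjusted p = 0.0608). *Csf1r* and *Flt3*, named after their values were seen, went in opposite directions at low levels, from 0.130 to 0.889 CPM (6.52-fold higher, adjusted p = 0.0294) and from 0.990 to 0.311 CPM (3.12-fold lower, adjusted p = 0.126), and neither passed.

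In the list of LMO2 and LYL1 partners 5 of 12 genes stayed under 10 reads in every library. The other 7 were tested and 0 passed by edgeR (2 at an unadjusted p below 0.05, 1 by DESeq2), with a median log2 fold change of -0.12. The LDB1-binding cofactor genes *Ssbp4* and *Ssbp2* were at 174 and 165 CPM in WT and at 169 and 152 CPM in DKO, and the E protein gene *Tcf3* at 130 and 133 CPM. Another E protein gene, *Tcf4*, lay below every WT library in both DKO libraries, at 8.53 ± 1.55 CPM in WT and 4.22 ± 0.440 CPM in DKO (log2 fold change -1.02, SE 0.25, adjusted p = 0.0372, edgeR). *Tcf4* was named after its values were seen. The MYB relatives and cofactors gave 0 of 8 (0 at an unadjusted p below 0.05, 0 by DESeq2), with *Psip1*, *Taf12* and *Men1* at 211, 128 and 89.5 CPM in WT and 194, 146 and 82.3 CPM in DKO. The MEF2 relatives and cofactors gave 0 of 9 (1 at an unadjusted p below 0.05, 1 by DESeq2), with *Mef2a* at 37.7 CPM in WT and 43.0 CPM in DKO, the kinase gene *Mapk14* at 78.9 and 71.0 CPM and the repressor gene *Hdac7* at 43.8 and 49.8 CPM.

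In the list of KIT ligand and signalling genes 1 of 13 tested genes passed by edgeR, beside 3.92% of all tested genes. By DESeq2 3 passed, beside 1027 of all 14859 genes. An unadjusted p below 0.05 was found for 5, with no share over all genes beside it. *Lyn*, a SRC family kinase that acts below KIT and is known from myeloid and B cells, had 0, 12 and 13 reads in WT and 70 and 104 in DKO. It rose from 0.326 ± 0.283 to 4.58 ± 1.75 CPM (log2 fold change 3.77, SE 0.57, adjusted p = 0.00387, edgeR). With a WT library left out its adjusted p was 0.0145 to 0.0336. *Ptpn6* was at 708 and 649 CPM, and *Pik3cd* at 166 and 109 CPM (log2 fold change -0.61, adjusted p = 0.0605).

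Factors of T lineage commitment, which take over as many progenitor genes are shut down, were, of the 7 lists, the one with the most genes below WT. In 6 of 12 tested genes both DKO libraries lay below every WT library and in 2 above, beside 19.5% and 19.6% of all tested genes. By edgeR 2 passed, beside 3.92% of all tested genes, and by DESeq2 3, beside 1027 of all 14859 genes. An unadjusted p below 0.05 was found for 8, a level with no share over all genes beside it. *Tcf7*, which encodes the WNT-linked factor TCF1, fell from 1286 ± 101 to 870 ± 73.8 CPM (log2 fold change -0.56, SE 0.10, adjusted p = 0.00741, edgeR). Its relative *Lef1* fell from 659 ± 12.3 to 434 ± 62.5 CPM (log2 fold change -0.60, SE 0.10, adjusted p = 0.00611, edgeR). Neither passed with a WT library left out (adjusted p = 0.0229 to 0.0478 for *Tcf7* and 0.0373 to 0.0404 for *Lef1*) or with a replicate block (0.0187 and 0.0106). *Satb1*, a chromatin organiser, was at 1377 and 945 CPM (log2 fold change -0.54, adjusted p = 0.0164). Both decreases were smaller in fold than the increases of *Myb*, *Lmo2* and *Hhex*.

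**Figure D3:**
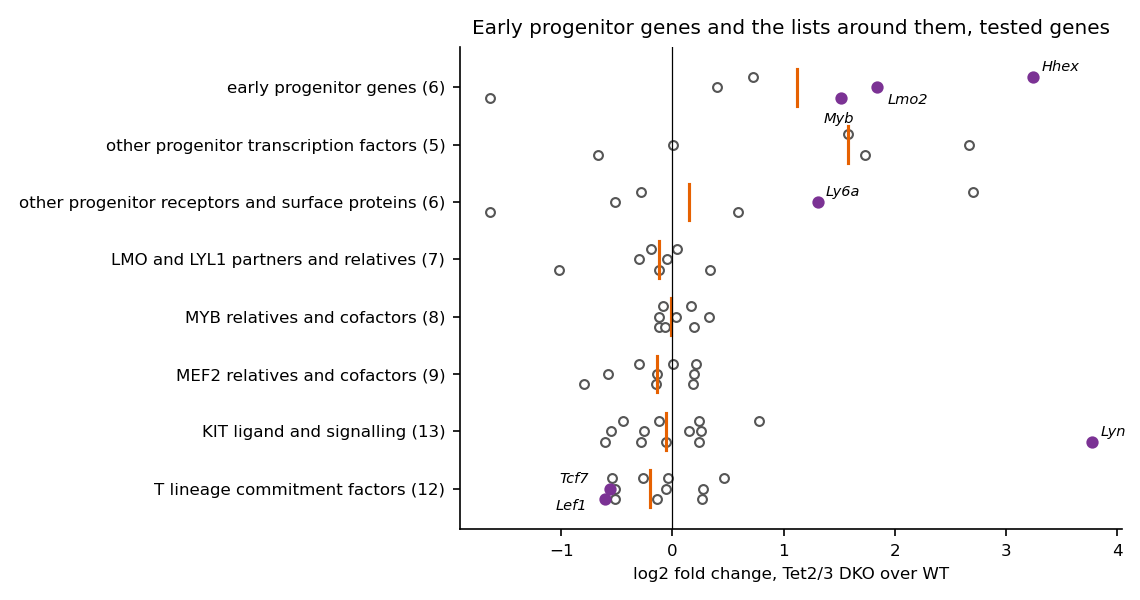
Log2 fold change (DKO over WT) of each tested gene in the early progenitor group and in the 7 lists around it, with the number tested in brackets, filled points for an adjusted p below 0.01 and a vertical orange bar at each list's median. *Myb*, *Lmo2*, *Hhex*, *Ly6a* and *Lyn* lie to the right, *Tcf7* and *Lef1* to the left, and the lists of LMO2, MYB and MEF2 partners have medians of -0.12, -0.017 and -0.14, with single genes as low as -1.02 (*Tcf4*).

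For each of the 3 genes that passed, the genes of most similar pattern were taken as those with the smallest root-mean-square difference in log2 CPM, relative to the WT mean, over the 5 libraries, among 10631 candidates. For *Myb* these were *Tdgf1* (0.0597), *Alpl* (0.0637) and *Slc16a5* (0.0838), with log2 fold changes of 1.54, 1.48 and 1.53. For *Lmo2* they were *Stat4* (0.121), *Serpinb6b* (0.128) and *Ifitm10* (0.137), with log2 fold changes of 1.84, 1.69 and 1.90. *Stat4* encodes the signal transducer below the interleukin 12 receptor and was at 27.8 CPM in WT and 99.3 CPM in DKO. For *Hhex* they were *Rbpms* (0.174), *Oaf* (0.175) and *Ccr2* (0.208), with log2 fold changes of 3.35, 3.01 and 3.36. *Ccr2*, a chemokine receptor gene, had 437 reads in DKO replicate 1 and 1270 in DKO replicate 2, and like *Hhex* was higher in the second. None of these genes was among the 10 or in the 7 lists, and the match rests on a difference between groups and on 5 libraries.

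**Figure D4:**
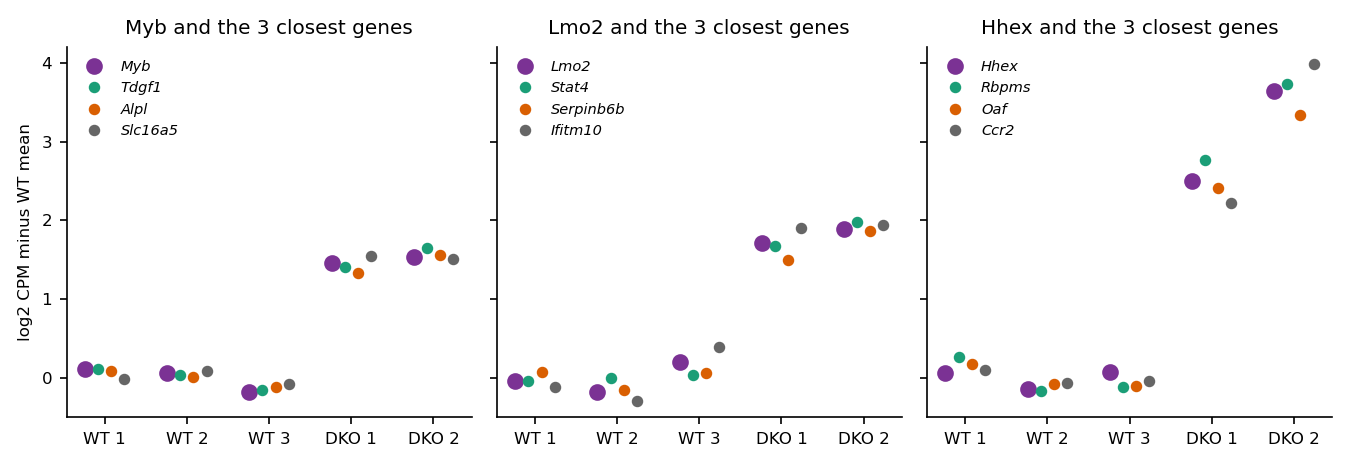
Log2 CPM of *Myb*, *Lmo2* and *Hhex* and of the 3 genes closest to each, every gene centred on its own WT mean, with 1 point per gene and library (WT 1 to 3, DKO 1 and 2) set side by side. The DKO points of *Myb* and *Lmo2* lie close together between the libraries, while *Hhex*, *Rbpms*, *Oaf* and *Ccr2* are higher in DKO replicate 2.

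Markers of several other cell types moved with genotype. The sort was checked against 12 marker lists, whose summed levels are given here as WT range and then the DKO libraries in order. CD4 T cell markers summed to 13218 to 14132 CPM against 12335 and 10510 CPM, with *Cd4*, *Cd5* and *Cd6* lower at an adjusted p below 0.01. DP markers summed to 233 to 268 CPM against 197 and 158 CPM, most of it *Cd1d1*, with *Rag1* at 0 reads and *Rag2* at 1 read over all libraries. Of the 6 DP markers tested, *Cd8b1* was lower at an adjusted p below 0.01, and the libraries did not overlap in 4, 3 of them below WT (19.5% of all tested genes) and *Cd8a* above (19.6% of all tested genes; 3.67 CPM in WT and 7.22 CPM in DKO, log2 fold change 0.94, adjusted p = 0.128). Markers of double negative (DN) thymocytes, the stage at which many progenitor genes are shut down, summed to 81.5 to 95.6 CPM against 51.2 and 71.8 CPM, 0 of 3 tested passed by edgeR (2 at an unadjusted p below 0.05, 2 by DESeq2), and the pre-T cell receptor gene *Ptcra* had 3, 0 and 0 reads in WT and 2 and 0 in DKO. *Cpa3*, in the DN list and also known from mast cells, had 19, 9 and 13 reads in WT and 46 and 39 in DKO and so went against the DN sum (0.529 ± 0.184 to 2.19 ± 0.00777 CPM, log2 fold change 2.03, SE 0.39, adjusted p = 0.0123, edgeR). The DN sum is made up mostly of *Dtx1* (53.5 CPM in WT and 33.9 CPM in DKO) and *Il2ra*, which had 34.2, 33.7 and 37.4 CPM in WT and 11.4 and 38.3 CPM in DKO, so that its DKO libraries lay on either side of WT.

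B cell markers summed to 6.42 to 8.49 CPM in WT against 10.2 and 11.7 CPM in DKO, and myeloid markers to 10.1 to 18.4 CPM against 28.9 and 57.1 CPM, highest in DKO replicate 2. The B cell list had a median log2 fold change of 0.077 and genes in both directions, with *Cd79b*, the largest single part of its sum, above WT in both DKO libraries (3.82 to 6.33 CPM, adjusted p = 0.0988) and *Cd79a* below (2.31 to 1.46 CPM, adjusted p = 0.366). Most of the myeloid sum was *Lyz2* (5.83 to 10.8 CPM in WT and 18.6 and 42.5 CPM in DKO, adjusted p = 0.0142), and without it the myeloid sums were 4.23 to 7.62 CPM in WT and 10.3 and 14.7 CPM in DKO. In neither of the B cell and myeloid lists did a gene pass by edgeR or DESeq2 (2 of 4 and 4 of 5 tested at an unadjusted p below 0.05), but 4 of the 5 tested myeloid genes were above WT in both DKO libraries, as were 19.6% of all tested genes. Mast cell markers, a cell type that keeps *Kit*, summed to 1.93 to 3.20 CPM against 3.38 and 4.81 CPM, with *Fcer1a*, *Tpsb2* and *Mcpt4* at 0. This sum is mostly *Hdc* and *Cpa3*, and its part in the *Kit* values was not tested. Megakaryocyte and erythroid markers summed to 0.348 to 0.590 CPM against 0.429 and 0.783 CPM and none could be tested. Dendritic cell markers summed to 20.5 to 23.2 CPM against 17.5 and 31.2 CPM, and endothelial and stromal markers to 158 to 193 CPM against 123 and 172 CPM, with *Kdr*, *Tek*, *Emcn* and *Col3a1* at 0. These sums were mostly *Irf8* and *Pecam1*, both also known from T cells or other blood cells. In neither of these did a gene pass by edgeR or DESeq2 (2 in each at an unadjusted p below 0.05).

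Markers of natural killer and innate-like T cells were the list with the most genes higher in DKO at an adjusted p below 0.01, 5 of 8 beside 2.42% of all tested genes (*Zbtb16*, *Klrb1c*, *Ncr1*, *Klrd1* and *Xcl1*), with sums of 210 to 233 CPM in WT and 265 and 411 CPM in DKO. Most of that sum was *Il2rb* (198 to 224 CPM in WT and 222 and 329 CPM in DKO, adjusted p = 0.148), which overlapped between the genotypes, and without it the sums were 9.06 to 12.5 CPM in WT and 43.6 and 82.8 CPM in DKO. *Zbtb16*, which encodes the innate-like lineage factor PLZF, had 32, 13 and 24 reads in WT and 251 and 253 in DKO (log2 fold change 3.85, SE 0.29, adjusted p = 8.57e-05, edgeR). With 1 WT library left out, *Cd5*, *Cd6*, *Cd8b1* and *Zbtb16* passed in every fit and *Klrd1* only without WT replicate 1, while *Cd4*, *Klrb1c*, *Ncr1*, *Xcl1* and *Blk* passed in none. Single marker genes are named here after their values were seen. Gamma-delta T cell markers summed to 21.6 to 23.3 CPM against 27.4 and 35.6 CPM, with a median log2 fold change of -0.42 over its 4 genes. Its higher sum in DKO went with *Blk* (0.260 to 11.02 CPM, adjusted p = 0.00163, edgeR), while *Sox13* (log2 fold change -2.12, adjusted p = 0.0361) and *Cd163l1* (-1.17, adjusted p = 0.102) lay below WT in both DKO libraries. Dividing cell markers summed to 1073 to 1220 CPM against 763 and 1310 CPM, with 0 of 10 genes past the threshold by edgeR (1 at an unadjusted p below 0.05, 1 by DESeq2). The part of the DP, DN, B cell, myeloid, mast cell, innate-like and gamma-delta T cell markers in the higher *Myb*, *Lmo2* and *Hhex* was not tested.

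**Figure D5:**
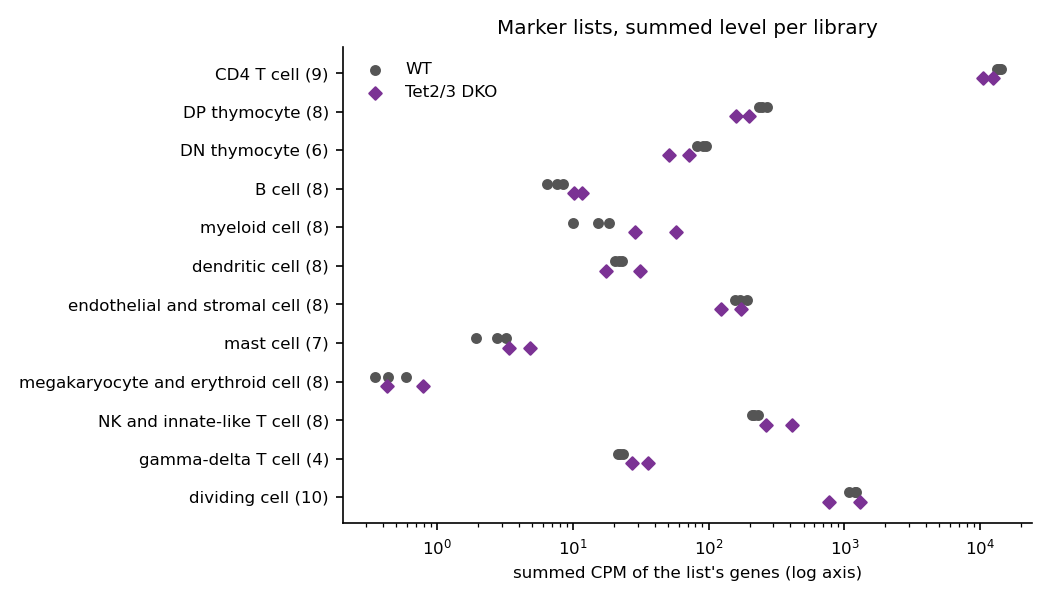
Summed CPM of the 12 marker lists in each library on a log axis, with points for the 3 WT and 2 DKO libraries. CD4 T cell markers are highest in every library, and the myeloid (28.9 and 57.1 CPM) and innate-like (265 and 411 CPM) sums of both DKO libraries lie above the WT points, with *Lyz2* and *Il2rb* making up most of these sums.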

How the data were processed

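RNA-seq of sorted CD4 SP thymocytes (SMART-seq v4, without molecular identifiers) was available for 3 WT and 2 DKO mice. The authors trimmed reads with fastp, aligned them to GRCm38 with STAR and deposited the STAR counts per gene, which are raw read counts, and the unstranded count was used. The submitters' processing notes name bcl2fastq 2.20.0, fastp 0.21.0, STAR 2.7.5a and DESeq2. The shares of reads on the 2 strand settings were 49.8% to 50.2%, so the libraries carry no strand. Rows that name no gene (unmapped, multimapped, outside genes, ambiguous) made up 20.8% to 23.7% of reads and were left out. Reads shared by overlapping genes are not counted, which lowers *Myb*, *Lyl1* and *Bcl11a*.

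Counts were scaled by TMM and tested with edgeR 4.0.16 in R 4.3.3 (glmQLFit without the legacy option, glmQLFTest, a term for genotype only) over the 13525 genes that passed filterByExpr, with Benjamini-Hochberg adjustment over all of them and a threshold of 0.01. Values are CPM with SD over mice, and the SE of a log2 fold change is its size divided by the square root of F. The p-values measure the spread between these mice. DESeq2 1.42.0, other scalings, filters and dispersions, a replicate block and leaving out each library were alternatives. The steps were tested on simulated data. The genes and lists were chosen with earlier results of these data known. Named were the 10 genes, *Tet2* and *Tet3*, listed genes past the threshold (otherwise up to 3 per list by mean CPM), and the 3 genes most like each of the 10 that passed. Prior counts of 2 were used for log2 CPM. Symbols and positions came from GENCODE M21, which held 55141 of the 55487 identifiers, and promoter windows from RefSeq. Deposited T cell receptor clonotype lists were not used here.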

Additional observations from a re-analysis of the deposited data

How the results depend on the processing

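The number of early progenitor genes past the adjusted p threshold was 3 and stayed within 2 to 4 under other scalings, dispersion settings and filters, the strand sum, a threshold of 0.05 and DESeq2, also where DESeq2 was run without each library in turn, an alternative chosen after seeing the data. It ranged from 0 to 4 by edgeR with 1 library left out, and the 3 fits without a WT library gave 0. The count over all tested genes, 530, ranged from 110 (without WT replicate 2) to 1311 (without DKO replicate 1), and was 1027 by DESeq2 and 1173 at a threshold of 0.05. The count in the 7 lists, 4, ranged from 1 to 12 with 1 library left out, and was 2 under the stricter filter, 11 by DESeq2 and 12 at 0.05. The cause of these shifts was not tested.

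The log2 fold change of *Mef2c* turned to -0.73 without DKO replicate 1 and was 0.93 without DKO replicate 2, and the other 5 tested genes kept their direction in all alternatives. Among the alternatives that keep both DKO libraries, *Myb* and *Lmo2* passed in all but the 3 fits without a WT library and the replicate block. *Hhex* passed in all but those 3 fits, *Lmo4* by DESeq2 alone and *Kit* in none. The alternative with a prior count of 2 changes only the log2 fold change, so its adjusted p could not differ.

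The replicate numbers name different mice. Deviations from the group means correlated at 0.0151 and 0.00446 over 13525 genes for the 2 shared numbers. With 2 DKO libraries the deviation of DKO replicate 1 is the negative of that of DKO replicate 2. Both correlations thus rest on 1 difference, and they cannot show whether samples shared a litter, a sort day or a batch. With the number as a replicate block, 1 of the 10 genes (*Hhex*), 2 listed genes and 358 genes in all passed.

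Depth limits *Lyl1*, *Erg*, *Cd34* and *Bcl11a*, which stayed under 10 reads. In a fit without the filter the adjusted p of *Lyl1*, *Cd34* and *Erg* was 0.880, 0.573 and 0.436.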
